A study of Mus musculus with 2 samples.

Results

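The conjugating enzymes of the liver were examined as a set of 38 named genes: 20 glutathione S-transferase genes (GST), 11 UDP-glucuronosyltransferase and related genes (UGT) and 7 sulfotransferase genes (SULT). Members were found by matching the transcript accession of each array probe to its gene symbol. Of the 38 genes, 36 had a matched probe, 52 probes in all, and 34 were measured on both arrays, out of 13881 named genes measured on both arrays. No probe was matched to Gsta1 or to Ugt1a1, the bilirubin-conjugating enzyme, and neither array had signal well above background for Sult2a1 or Sult3a1.

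The livers came from CREBH-Tg mice and from WT (wild-type) mice, on a C57B6J background. In CREBH-Tg mice a transgene drives human CREBH cDNA in its active form, mainly in liver, and CREBH is normally a transcription factor held in the endoplasmic reticulum membrane. The HFHS diet was given to mice of either genotype over 12 weeks. Liver samples of a genotype were pooled, and 1 one-colour Agilent array read each pool. The sources used here give no age, sex, transgene promoter or number of mice per pool. No difference could be tested against replicates, so all are described by size.

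GSTs join glutathione to reactive electrophiles, UGTs join a sugar acid to bilirubin, steroids and drugs, and SULTs transfer sulfate to phenols, steroids and amines. The products are more water-soluble and leave the cell through efflux pumps. The liver is the main site of these reactions, and their genes are known to respond to the receptors CAR and PXR, the dioxin receptor AHR and the oxidant-responsive factor NRF2.

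Each value is the log2 processed signal minus the 75th percentile of its own array, and each difference is CREBH-Tg minus WT on that scale. The 75th percentile was an intensity of 309 on the CREBH-Tg array and 333 on the WT array. On the CREBH-Tg array 58.34% of spots were well above background, against 55.41% on the WT array, and no spot was saturated. Mouse Creb3l3, whose probe does not check the human transgene, differed by -0.0053. The only measure of error was the scatter of probes spotted repeatedly, given as a range that holds 95% of it under a normal spread. Named genes were split by signal into 3 classes of equal size, and this range reached 0.095 either side of 0 for the brightest, 0.17 for the middle and 0.40 for the dimmest class. This range leaves out differences between mice, pools, labelling reactions and hybridisations. Of the measured members, 29 were in the brightest class and 5 in the middle class.

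None of the 34 measured members differed by 2-fold or by 1.5-fold between the genotypes in the main values. Some conjugating enzyme genes outside the set did, and they are given below. Across all named genes 1.33% were at least 2-fold apart, and 4.55% at least 1.5-fold. In the brightest class those shares were 0.432% and 1.82%, so a count of 0 among 34 genes lies near the background. With quantile normalization, loess, the authors' value table or the 75th percentile over detected probes, Gstt3 passed 1.5-fold, reaching 1.57-fold. The lowest log2 ratio among the members was -0.57, for Gstt3, and the highest was 0.32, for Mgst3 and Gstt2. The median was -0.016, beside 0.026 over all named genes, and 19 members were below 0, as were 44% of all named genes. Beyond the 95% range of spot noise, 3 members were higher in CREBH-Tg and 9 were lower, and 22 lay within it. The same range was passed upward by 20.8% of all named genes and downward by 13.3%.

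**Figure D1:**
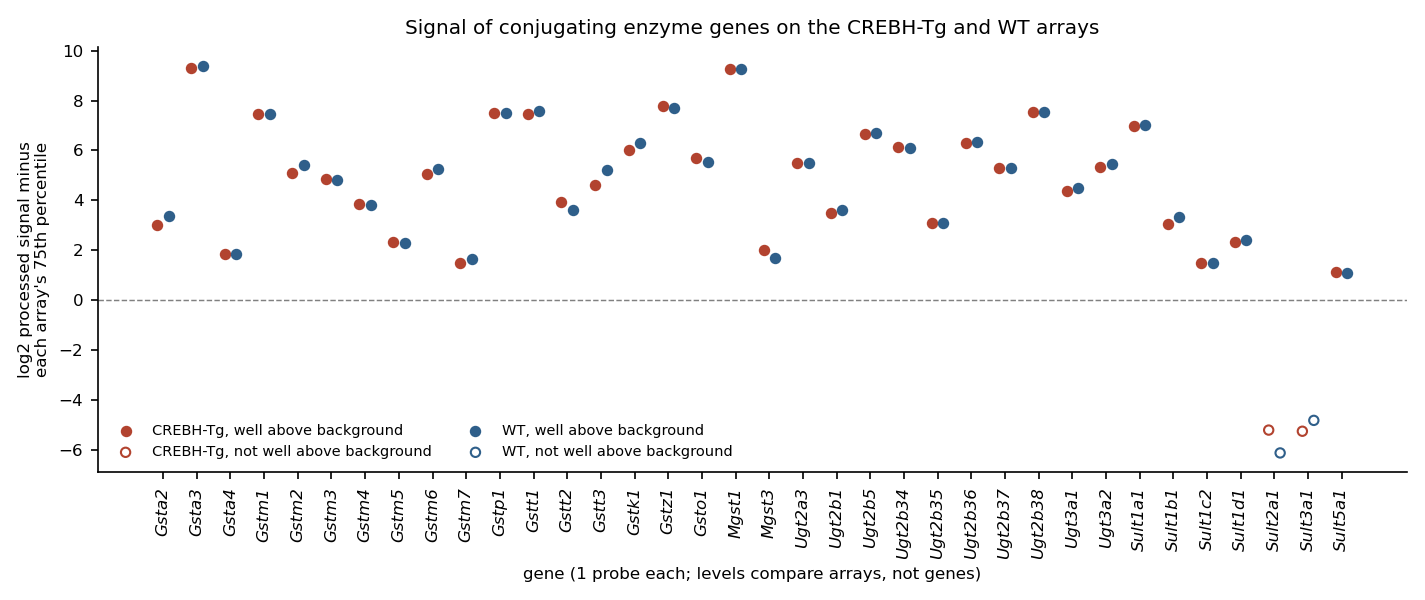
Log2 processed signal minus each array's 75th percentile (vertical axis) for the 36 members with a matched probe, with 1 point for the CREBH-Tg array (red) and 1 for the WT array (blue). The pairs of points nearly coincide for most genes, and open points mark Sult2a1 and Sult3a1, whose signal was near background.

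Within the brightest class, 2 of 29 members were higher and 9 were lower beyond spot noise. Among all 4627 named genes of that class, 35.8% were higher and 15.5% lower. The median log2 ratio was -0.029 for these members and 0.050 for the class as a whole. The distance between both medians is not moved by a constant applied to an array. The members were not matched to the class on signal: the median log2 signal, averaged over both arrays, was 5.40 for the members and 3.74 for the class, which ran from 2.05 to 10.7. The sizes were small all the same, with a median absolute log2 ratio of 0.071 among the members and 0.098 in the class as a whole. Both sizes depend on the scaling between arrays, so which is the smaller is not settled by the main values. Under loess the median log2 ratio of all 34 members was -0.097, beside 0.0098 over all named genes. The counts depended on the scaling between arrays: 11 members were higher and 6 lower beyond spot noise after scaling to the median, and 3 were higher and 18 lower after loess. Of the 34 members, 20 had a ratio whose sign differed between the 10 settings tried.

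**Figure D2:**
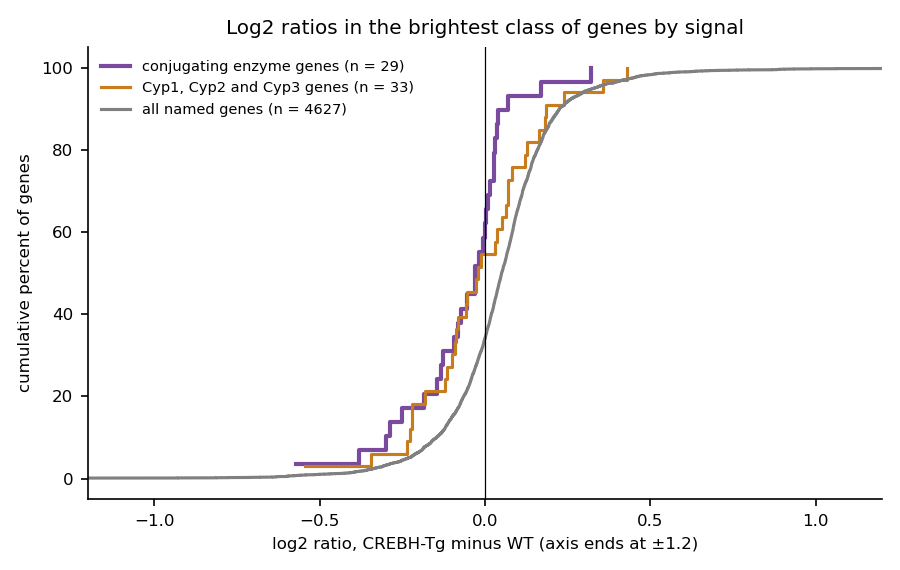
Cumulative percent of genes (vertical axis) by log2 ratio of CREBH-Tg to WT (horizontal axis) in the brightest class of named genes, for 29 conjugating enzyme genes, 33 P450 genes and all 4627 genes. The curve of the conjugating enzymes lies left of the curve of all genes near 0, with medians of -0.029 and 0.050.

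The theta class held both the lowest and nearly the highest ratio of the set. Gstt3 had a log2 signal of 4.63 in CREBH-Tg and 5.21 in WT liver, 1.49-fold lower in CREBH-Tg. In the brightest class 0.735% of genes had a ratio as low. Its neighbour Gstt1, a theta enzyme known to act on small halogenated compounds, was at 7.46 in CREBH-Tg and 7.59 in WT liver, a difference of -0.13. Gstt2, the last of the group along the chromosome, lay on the other side of 0, with 3.94 in CREBH-Tg and 3.62 in WT liver, 1.25-fold higher in CREBH-Tg. In the brightest class 5.34% of genes had a ratio as high. Between Gstt3 and Gstt2 the log2 ratios were 0.89 apart. Each theta gene was read by 1 probe on 1 spot, so no second probe checks these values. Over the 10 settings Gstt3 ran from -0.65 to -0.48 and Gstt2 from 0.26 to 0.41.

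The start regions of Gstt3 and Gstt1 are shown because these neighbours, read from the same strand of chromosome 10, differed in size of ratio. Those of Gsta2, Gstm2 and Mgst3 are shown as examples from other classes among the 8 genes beyond spot noise in all settings tried. No window was listed for Gstt2. Sequences are from RefSeq on the GRCm38.p6 build and run from 250 bases before to 50 bases after a gene's start, 5′ to 3′ on the gene's strand, and for Gstt3 the first of 2 listed starts is shown. Capitals mark matches on either strand to 5 motifs, which are TGACNNNGC for the antioxidant response element core, GCGTG for the xenobiotic response element core, TGACG for the CREB/ATF half-site, CCAAT for the CCAAT box and TATAAA for the TATA box. The antioxidant core can overlap the half-site.
Gstt3, chr10:75781373-75781672, minus strand: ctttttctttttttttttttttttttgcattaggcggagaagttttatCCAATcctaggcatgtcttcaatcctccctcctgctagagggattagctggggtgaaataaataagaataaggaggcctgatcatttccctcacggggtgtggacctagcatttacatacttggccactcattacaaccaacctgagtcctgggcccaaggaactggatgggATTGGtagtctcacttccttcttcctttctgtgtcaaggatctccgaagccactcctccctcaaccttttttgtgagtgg
Gstt1, chr10:75797682-75797981, minus strand: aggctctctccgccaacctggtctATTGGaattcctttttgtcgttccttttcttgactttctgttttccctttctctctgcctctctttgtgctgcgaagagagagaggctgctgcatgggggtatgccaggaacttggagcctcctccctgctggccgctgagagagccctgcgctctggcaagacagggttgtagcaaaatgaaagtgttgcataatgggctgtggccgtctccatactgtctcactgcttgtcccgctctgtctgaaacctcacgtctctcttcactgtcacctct
Gsta2, chr9:78347096-78347395, minus strand: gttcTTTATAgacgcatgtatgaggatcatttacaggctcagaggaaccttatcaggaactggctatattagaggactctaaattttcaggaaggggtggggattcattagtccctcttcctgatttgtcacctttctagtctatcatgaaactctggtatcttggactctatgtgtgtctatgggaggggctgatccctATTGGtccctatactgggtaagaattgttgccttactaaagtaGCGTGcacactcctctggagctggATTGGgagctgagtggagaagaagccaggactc
Gstm2, chr3:107986371-107986670, minus strand: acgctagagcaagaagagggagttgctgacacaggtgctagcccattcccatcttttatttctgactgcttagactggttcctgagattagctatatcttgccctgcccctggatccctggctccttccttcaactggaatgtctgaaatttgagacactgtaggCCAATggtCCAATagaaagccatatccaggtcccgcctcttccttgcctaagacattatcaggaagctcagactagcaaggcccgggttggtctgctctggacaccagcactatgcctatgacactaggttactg
Mgst3, chr1:167393792-167394091, minus strand: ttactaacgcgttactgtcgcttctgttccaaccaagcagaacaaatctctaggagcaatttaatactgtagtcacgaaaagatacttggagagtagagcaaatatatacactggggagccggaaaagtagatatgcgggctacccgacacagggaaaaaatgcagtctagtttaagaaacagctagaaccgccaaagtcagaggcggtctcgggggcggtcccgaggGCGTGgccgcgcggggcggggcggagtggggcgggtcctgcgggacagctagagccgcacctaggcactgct

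Neither theta window held a xenobiotic core, an antioxidant core or a CREB/ATF half-site, and both held CCAAT. Gsta2 and Mgst3, with ratios of opposite sign, both held the xenobiotic core. Windows were listed for 34 of the 38 genes, which are not all the ones measured, and some genes had several windows, 43 in all. CCAAT was in 22 of the 43 windows (51.2%), beside 37.4% of all 32851 listed windows, and windows of 1 gene can overlap. The xenobiotic core was in 20.9% of the members' windows, beside 32.4% of all, and TATAAA in 14.0%, beside 13.6%. The antioxidant core and the CREB/ATF half-site were each in 9.30% of the members' windows, beside 12.4% and 20.8% of all. Calls against spot noise in this paragraph are those of the main values. The antioxidant core was in windows of Gsta3, Gstm5, Gstm7 and Mgst1, all within spot noise. Over the 10 settings Gsta3 and Gstm7 were each lower beyond it in 4, Mgst1 lower in 1 and Gstm5 higher in 1. The half-site was in windows of Gstk1, which was lower in CREBH-Tg, Gsto1, which was higher, and Gstm5 and Gstz1, both within spot noise. Besides Gsta2 and Mgst3, the xenobiotic core was in windows of Sult1b1, which was lower, of Gstm1, Gstm5, Gstp1 and Sult1d1, all within spot noise, and of Gsta1, which had no probe.

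Alpha-class GSTs handle products of lipid peroxidation among other substrates. Gsta2 had a log2 signal of 2.998 in CREBH-Tg and 3.38 in WT liver, 1.30-fold lower in CREBH-Tg, and ran from -0.44 to -0.29 over the settings. Gsta3, which in mice detoxifies the aflatoxin epoxide, was at 9.30 in CREBH-Tg and 9.37 in WT liver, and its 2 probes gave ratios of -0.072 and -0.016. Gsta4, known for conjugating hydroxynonenal, was at 1.84 in CREBH-Tg and 1.83 in WT liver. Its probe was spotted 10 times, and the ratio was 0.013 ± 0.042 (SD over spots of the same pools), with 3 spots below 0 and 7 above. Alpha genes are alike in sequence, so the value of Gsta2 may include signal from other alpha transcripts.

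Among the 7 mu-class genes, which lie side by side on chromosome 3, lower and near-equal genes were interspersed. Gstm2 had 5.11 in CREBH-Tg and 5.41 in WT liver, 1.23-fold lower in CREBH-Tg, and its 3 probes ran from -0.36 to -0.25. Gstm6 was at 5.05 in CREBH-Tg and 5.24 in WT liver, with 3 probes between -0.18 and -0.094. Gstm7 was at 1.49 in CREBH-Tg and 1.66 in WT liver, a ratio of -0.16 that lies just within the spot noise of its signal class. A second Gstm7 probe, spotted 10 times with 7 spots kept, gave -0.14 ± 0.11 (SD over spots), and all 7 were below 0. The remaining mu genes were near 0: Gstm1, a major hepatic mu enzyme, had 7.47 in CREBH-Tg and 7.45 in WT liver. Gstm3, Gstm4 and Gstm5 had ratios of 0.037, 0.039 and 0.028, and the second probes of Gstm3 and Gstm4 gave -0.15 and 0.17. Mu genes are close paralogs, and their probes can share signal.

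**Figure D3:**
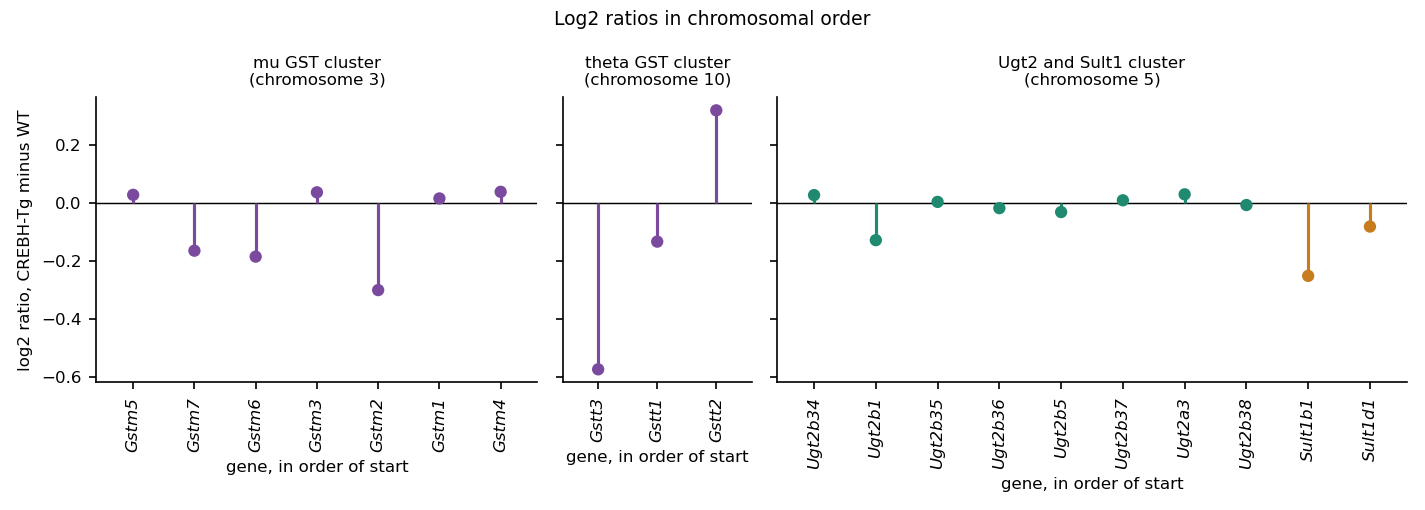
Log2 ratio of CREBH-Tg to WT (vertical axis) for members in order along the chromosome, in the mu cluster, the theta cluster and the Ugt2 and Sult1 cluster. The theta genes span 0.89 on the log2 scale, the mu genes 0.34 and the 10 genes of the Ugt2 and Sult1 cluster 0.28.

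The single-gene GST classes differed in direction. Gstk1, the kappa enzyme of mitochondria and peroxisomes, had 6.02 in CREBH-Tg and 6.31 in WT liver, 1.22-fold lower in CREBH-Tg. Gsto1, an omega enzyme that reduces dehydroascorbate, had 5.69 in CREBH-Tg and 5.52 in WT liver, 1.12-fold higher in CREBH-Tg. Gstp1, the pi enzyme, was at 7.48 in CREBH-Tg and 7.51 in WT liver, a ratio of -0.029, and it has a near-identical neighbour, Gstp2, at -0.015. Gstz1, the isomerase of tyrosine breakdown, was at 7.78 in CREBH-Tg and 7.71 in WT liver, a ratio of 0.071 within spot noise.

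The microsomal GSTs, membrane enzymes unrelated in fold to the soluble classes, were a near-equal gene and a higher one. Mgst1 had a log2 signal of 9.25 in CREBH-Tg and 9.25 in WT liver, with probes at 0.00032 and -0.039. Mgst3, which can make leukotriene C and reduce lipid peroxides, had 2.02 in CREBH-Tg and 1.70 in WT liver, 1.25-fold higher in CREBH-Tg. Its second probe gave 0.33, and the gene ran from 0.26 to 0.41 over the settings.

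In the main values the UGT genes were the most alike between the genotypes in size of ratio. The median absolute log2 ratio was 0.029 over 10 genes, beside 0.13 over 19 GST genes and 0.055 over 5 SULT genes. All 10 UGT genes were in the brightest class, beside 16 of the GST and 3 of the SULT genes. These sizes depend on the scaling between arrays, and under median scaling the median size for UGT genes was not below that for SULT genes. The difference between these families was not tested. The 7 Ugt2b genes, which encode the main UGTs for steroids and many drugs, ran from -0.13 for Ugt2b1 to 0.027 for Ugt2b34. Ugt2b1 had 3.48 in CREBH-Tg and 3.61 in WT liver and was the only Ugt2b gene beyond spot noise in the main values. Ugt2b5 had 6.66 in CREBH-Tg and 6.69 in WT liver, and Ugt2b36 had 6.31 in CREBH-Tg and 6.32 in WT liver. Ugt2b38 had 7.55 in CREBH-Tg and 7.56 in WT liver, and Ugt2b35 and Ugt2b37 had ratios of 0.0039 and 0.0094. Ugt2a3, which lies among them on chromosome 5, was at 5.51 in CREBH-Tg and 5.48 in WT liver. Ugt2b genes are highly similar, so probes may read several of them together and the values are not fully separate.

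Of the Ugt3 genes, whose enzymes in humans use sugar donors other than glucuronic acid, Ugt3a2 lay beyond spot noise and Ugt3a1 just within it. Ugt3a2 had 5.32 in CREBH-Tg and 5.47 in WT liver, 1.11-fold lower in CREBH-Tg, and its 2 probes gave -0.15 and -0.12. Ugt3a1 had 4.38 in CREBH-Tg and 4.48 in WT liver, a ratio of -0.094 beside a range of 0.095. It was below 0 in all 10 settings and lower beyond spot noise in 5, so the cutoff alone sets these genes apart.

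Of the SULT genes, Sult1b1 alone lay beyond spot noise in the main values. Over the 10 settings, Sult1d1 was lower beyond it in 6 and Sult1a1 in 3. Sult1b1, which sulfates thyroid hormones, had 3.07 in CREBH-Tg and 3.32 in WT liver, 1.19-fold lower in CREBH-Tg. Its neighbour Sult1d1, which sulfates catecholamines in mice, had 2.35 in CREBH-Tg and 2.43 in WT liver, and its 2 probes disagreed in size, at -0.081 and -0.30. Sult1a1, the phenol sulfotransferase, had 6.96 in CREBH-Tg and 7.02 in WT liver. Sult1c2 and Sult5a1 had ratios of -0.014 and 0.051. Sult2a1, which sulfates bile acids and steroids, and Sult3a1, which sulfates amines, are known to be female-predominant in mouse liver. Neither was well above background: Sult2a1 was at -5.21 in CREBH-Tg and -6.12 in WT liver, and Sult3a1 at -5.25 in CREBH-Tg and -4.82 in WT liver. No ratio is given for these 2 genes.

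**Figure D4:**
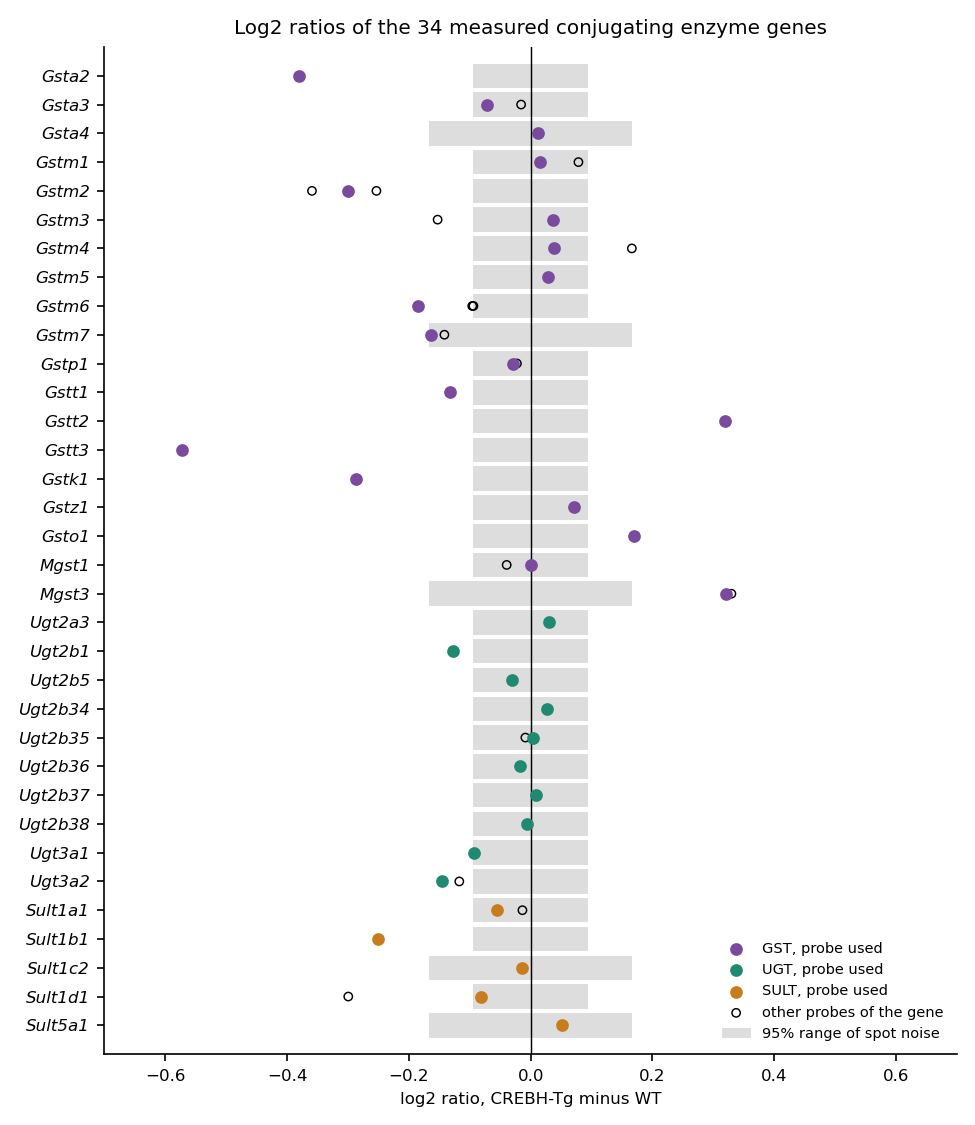
Log2 ratio of CREBH-Tg to WT (horizontal axis) for each of the 34 measured members (rows), with the 95% range of spot noise for its signal class as a grey bar. Coloured points are the probe used and open points the other probes of a gene, and 3 members lie right of their bar and 9 left of it.

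Probes of the same gene were close. In the 14 members read by several probes, the ratios of a gene's probes spanned 0.049 in the median, and the widest span was 0.22, for Sult1d1. Within the brightest class the median span was 0.059 for 12 members and 0.089 for all 1534 such genes. In 3 of the 14, Gstm3, Mgst1 and Ugt2b35, the probes lay on both sides of 0. Of the 12 members beyond spot noise, all 12 kept their sign over the 10 settings. Beyond spot noise in every setting were Gsta2, Gstm2, Gstm6, Gstt3, Gstk1 and Sult1b1, all lower in CREBH-Tg, and Gstt2 and Mgst3, both higher.

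The oxidising enzymes that act before conjugation were set beside these genes, as 48 measured Cyp1, Cyp2 and Cyp3 genes chosen by symbol. Past 1.5-fold, 1 of these was higher and 5 were lower, but 11 of the 48 were in the dimmest class, against none of the 34 conjugating enzymes. Among the 33 P450 genes of the brightest class none was 1.5-fold apart, and the median absolute log2 ratio was 0.12, beside 0.071 for the 29 conjugating enzymes. Which of these sets differs more between genotypes was not tested.

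Genes that supply the donors of conjugation were mixed, with 2 of 11 measured genes higher beyond spot noise and 4 lower, and a median of 0.010. Beside the counts of this list and those below stand the shares over all named genes, 20.8% higher and 13.3% lower. In the brightest class these shares were 35.8% and 15.5%. Papss2, which makes the activated sulfate donor, was farthest from 0, at 5.58 in CREBH-Tg and 5.91 in WT liver, 1.25-fold lower in CREBH-Tg. Chosen after their values were seen, Ugdh, which makes UDP-glucuronic acid, had a ratio of -0.22, and the sulfate transporter Slc26a1 had -0.21. For glutathione, also chosen afterwards, the synthetase Gss had 0.28 and the rate-limiting ligase subunits Gclc and Gclm had 0.010 and 0.090.

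Among further GST, UGT and SULT genes, 3 were past 1.5-fold, and all 3 were in the dimmest class, where 9.66% of genes were at least 1.5-fold apart. Of 30 such genes 9 were measured on both arrays, 4 of them lower beyond spot noise and none higher, beside 13.3% and 20.8% of all named genes. Sult1e1, the estrogen sulfotransferase, had -3.40 in CREBH-Tg and -2.07 in WT liver, 2.52-fold lower in CREBH-Tg. Ugt2a1 had -2.89 in CREBH-Tg and -1.82 in WT liver, 2.10-fold lower, and Ugt1a6a, a phenol-conjugating enzyme, had a ratio of -0.68. Under normexp background correction these 3 ratios were -0.61, -0.62 and -0.38. A gene of the same locus chosen after its value was seen, Ugt1a6b, was at 8.41 in CREBH-Tg and 8.33 in WT liver. Ugt1a transcripts share all but their first exon, so such a probe may read several of them.

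Genes for conjugation with other groups lay on both sides of 0, with 4 of 12 higher and 5 lower beyond spot noise and a median of -0.12. Nat8, the acetyltransferase that completes mercapturic acids from glutathione conjugates, had 3.34 in CREBH-Tg and 4.26 in WT liver, 1.90-fold lower in CREBH-Tg. Tpmt, the thiopurine methyltransferase, had 2.05 in CREBH-Tg and 2.68 in WT liver, 1.55-fold lower, with 2 probes at -0.63 and -0.52. Hydrolases that split conjugates or epoxides had a median of 0.056 over 5 genes, of which 1 was higher beyond spot noise and none lower. The farthest of them from 0, the dim arylsulfatase Arsb, was at -0.16 and within spot noise.

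Of 10 transporters of conjugates and their precursors, 6 were lower and 2 higher beyond spot noise, and the median was -0.15. Of these 10 genes 7 were in the brightest class, where 15.5% of all genes were lower and 35.8% higher. Slco1a4, an uptake carrier, had 1.33 in CREBH-Tg and 0.71 in WT liver, 1.54-fold higher in CREBH-Tg. The efflux pumps Abcb1a, Abcg2 and Abcc2, chosen after their values were seen as the farthest from 0, had ratios of -0.47, -0.39 and -0.31. Abcb1a was in the dimmest class, where spot noise reached 0.40. The other listed pumps, Abcc3, Abcc6 and Abcc4, had ratios of -0.16, -0.14 and -0.037, the last within spot noise.

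The receptors and factors known to act on conjugating enzyme genes had a median of -0.030 over 13 genes, with 2 higher and 5 lower beyond spot noise. The farthest from 0 was Nr1i3, which encodes CAR, at 4.18 in CREBH-Tg and 4.52 in WT liver, 1.27-fold lower in CREBH-Tg, with 2 probes at -0.35 and -0.32. Of the other factors named above, chosen after their values were seen, Ahr and its partner Arnt had ratios of -0.25 and -0.23, both beyond spot noise. Nfe2l2, which encodes NRF2, its partner Keap1 and Nr1i2, which encodes PXR, had ratios of 0.042, 0.040 and -0.057, all within it. Among 12 indicator genes of these factors, with a median of 0.12, 4 were higher and 3 lower beyond spot noise. Cyp2b10, the usual indicator of CAR, had 1.21 in CREBH-Tg and 2.37 in WT liver, 2.25-fold lower. Cyp4a10, an indicator of PPAR alpha, was 1.55-fold higher. The remaining indicators of AHR, NRF2 and PXR are given as values chosen after they were seen. For AHR, Cyp1a2 had -0.23, beyond spot noise, and the dim Cyp1a1 had 0.16, within it. For NRF2, Hmox1 had -0.20, beyond spot noise, and Nqo1, Srxn1, Txnrd1 and Gclc had 0.14, 0.090, 0.055 and 0.010, all within it. For PXR, Cyp3a11 had 0.18, beyond spot noise.

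**Figure D5:**
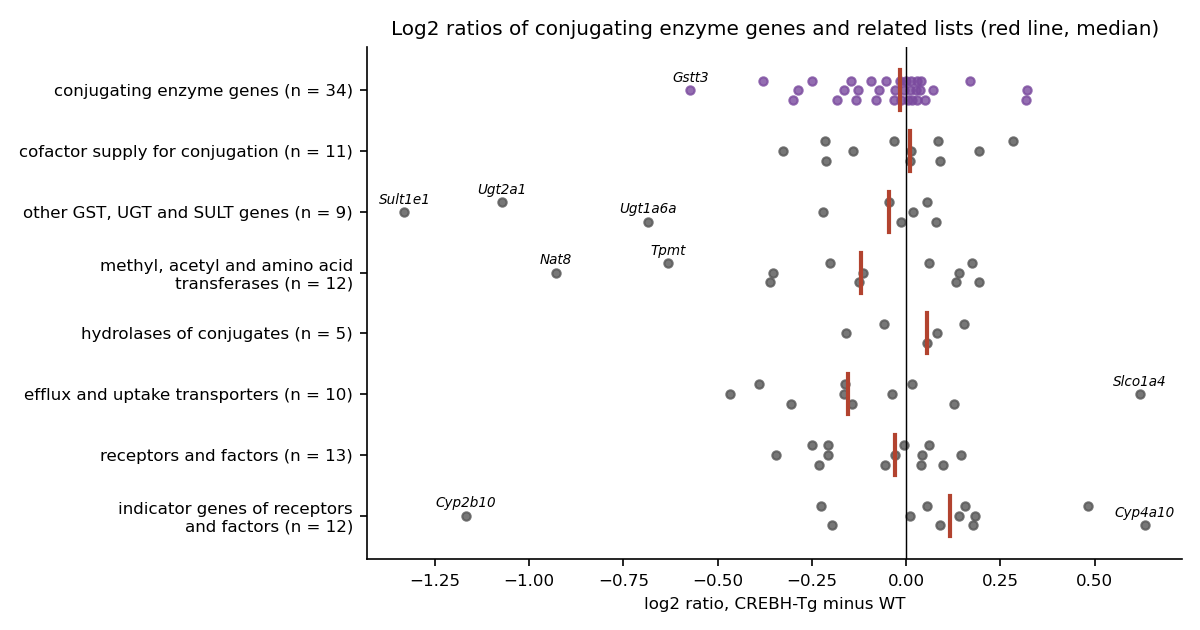
Log2 ratio of CREBH-Tg to WT (horizontal axis) for the 34 conjugating enzyme genes and 7 related lists (rows), with 1 point per gene and a red line at the median. The conjugating enzymes lie between -0.57 and 0.32, and the named outlying genes belong to other lists except Gstt3.

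The labelled tissue was checked against its markers. All 5 hepatocyte markers, among them Alb and Ttr, were well above background on both arrays, with a median log2 ratio of 0.076 and a summed signal of 4470 times the 75th percentile in CREBH-Tg and 4199 times in WT liver. In a bulk sample, fewer cells of a type and less RNA per cell cannot be told apart. Median ratios were -0.34 for 4 of 5 bile duct markers, -0.079 for 4 of 5 macrophage markers, 0.11 for 5 lymphocyte markers, 0.054 for 5 endothelial markers, 0.25 for 5 stellate cell markers and 0.86 for 4 of 5 adipocyte markers. The adipocyte markers went both ways, with ratios of 2.20 for Adipoq, 1.55 for Retn, 0.17 for Fabp4 and -1.88 for Cidea, all but Fabp4 in the dimmest class. Of the 4 measured bile duct markers 3 were in the dimmest class and 2 lay within spot noise, and Epcam was below background on both arrays. Summed signals in multiples of the 75th percentile were 1.51 in CREBH-Tg and 1.956 in WT liver for bile duct markers, and 5.64 in CREBH-Tg and 5.26 in WT liver for adipocyte markers. Sex-biased genes of either kind lay on both sides of 0, with a median of -0.22 over 7 male-biased genes and -0.72 over 6 female-biased genes, which include Sult1e1. Of these female-biased genes 5 were in the dimmest class, while all 7 male-biased genes were in the brightest. Neither array detected Xist or Kdm5d, and both detected Ddx3y (-0.25), Eif2s3y (-0.22) and the dim Uty (0.084, within spot noise). All of these but Xist lie on the Y chromosome. The part of cell types or of sex-biased expression in the ratios above was not tested.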

How the data were processed

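Liver RNA of CREBH-Tg and WT mice was measured on 2 one-colour (Cy3) arrays, 1 pool each. Agilent Feature Extraction 10.10.1.1 made the values, per the file headers, and the deposited processed signal is an intensity, background-subtracted and detrended within each array. The authors' value table also holds intensity, equal to the processed signal times 2.68 for CREBH-Tg and 2.59 for WT. How these constants were set is unknown here.

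Control spots and 300 outlier spots were left out. The log2 of the deposited intensity was taken, the 75th percentile of each array subtracted, and spots of a probe averaged. Detection needed more than 50% of a probe's spots to stand well above background. The brightest probe with detection on each array gave the value of a gene. Transcript accessions matched to a RefSeq table (GRCm38.p6) named 27233 of 55677 probes. Spot noise came from 276 probes spotted at least 5 times. With 1 array per genotype no test was run, and the number of arrays limits the precision.

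All members were named, and of each related list up to 4 genes past 1.5-fold or, with none, the 1 farthest from 0. Other genes named were chosen after their values were seen. The members and lists were chosen with earlier results of these data known. Steps were tested on simulated data. Alternatives were 4 other scalings (median, 75th percentile over detected probes, quantile, loess with a span of 0.3), the authors' table, normexp with an offset of 50 on the median spot signal, the mean over probes, and no filter or a stricter one on dim probes. Tools were Python 3.11.15, numpy 2.4.6, pandas 2.3.3, matplotlib 3.10.9, statsmodels 0.14.6, limma 3.58.1 and R 4.3.3.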

Additional observations from a re-analysis of the deposited data

How the results depend on the processing

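No member was 2-fold apart under any of the 9 alternatives, and none was past 1.5-fold or 3-fold in the main values. Gstt3 passed 1.5-fold under 4 alternatives. Members higher beyond spot noise numbered 3, and 11 with median scaling. Members lower beyond spot noise numbered 9, and 17 with quantile normalization, 18 with loess and 14 with the authors' value table. Their median log2 ratio was -0.016, and ran from -0.10 under quantile normalization to 0.074 under median scaling, which itself moved the median of all named genes by 0.090. The cause of these shifts was not tested. Across all named genes, 92 were at least 2-fold higher and 93 lower, against 42 and 16 with normexp, 605 and 782 with no filter on dim probes, and 76 and 49 with the stricter filter. No member beyond spot noise in the main values reversed its sign, though most alternatives shift all genes alike or leave single-probe genes unchanged. Ratios of 5 members under quantile normalization, 2 under loess and 2 under the mean over probes moved by more than spot noise. Naming by accession alone was not run apart, since the main values use it. No paired analysis was possible because each genotype has 1 array. Without replicates, differences as small as these cannot be set against the spread between pools.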

Other observations

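Relatives of Nat8 and some genes related to the conjugating enzymes were chosen after their values were seen. Of these, Nat8f5, Gm3776 and Dpep1 differed by more than any member in the main values, as did Nat8, given above. Dpep1, in the dimmest class, was higher in CREBH-Tg, with a ratio of 0.62, and the others were lower. No member lay in that class, where 9.66% of genes were at least 1.5-fold apart. Nat8f5, a relative of Nat8, had a log2 signal of 1.42 in CREBH-Tg and 2.90 in WT liver. Nat8f7 was well above background on the WT array only, so it has no measured ratio. Set to the lowest detected signal of the CREBH-Tg array, -4.55, it was 2.61-fold lower in CREBH-Tg. This figure is approximate and no strict bound, since some undetected probes lay above that signal, such as Gsto2 at -4.46. Nat8f1 and Nat8f2 had ratios of 0.22 and -0.11, and Nat8f4, which is dim, 0.0032. Members of this acetyltransferase family therefore lay on both sides of 0, and their probes may share signal. Gm3776, a predicted gene that lies near Gsta2 on chromosome 9, had 1.33 in CREBH-Tg and 2.03 in WT liver, a ratio of -0.70. Ggt6, of the family that trims glutathione conjugates, had probes at 0.11 and 0.18, and Gstp3 had a ratio of -0.21.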
